A study of Mus musculus with 10 samples.

Results

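The Hes and Hey genes encode basic helix-loop-helix repressors that were examined here for 4 histone marks in mouse mesoderm with and without functional SCL. All 9 members of the family were taken by name from the GENCODE M1 annotation (6 Hes genes and 3 Hey genes), out of 22359 protein-coding genes. Peaks were assigned to a gene when they came within 2500 bp of the transcription start site (TSS) of any protein-coding transcript or overlapped the gene body. ChIP-Rx, which is ChIP-seq with a spike-in of cells of the Drosophila line S2, had been performed on mCherry+ cells sorted at day 4 from embryoid bodies, the aggregates that embryonic stem (ES) cells form as they differentiate. In the WT group (genotype label Scl wt), cells carried Scl:mCherry, an mCherry reporter inserted into one Scl allele of the J1 ES line. In the Delta group (label Scl d/d), the Scl:mCherry line had been engineered further so that both Scl alleles lack the bHLH domain, and the mCherry gate was the same. Both lines therefore share the reporter and the parental ES cells, and each genotype was studied in 1 ES line. The strain was labelled C57Bl/6 X Sv129, but the number after Sv ran from 129 to 136 over the libraries. The labels gave 10 libraries, which were 1 per mark and genotype plus 2 inputs without a peak list. Because there was 1 library per mark and genotype, no difference between WT and Delta has a replicate check, and no p-values are given between them.

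Notch signalling releases the intracellular domain of the receptor, which joins the DNA-binding protein RBPJ and activates several Hes and Hey genes. Their products carry an Orange domain beside the helix-loop-helix, and many bind E-box, N-box or class C sites as dimers. Several Hes proteins recruit corepressors of the Groucho/TLE family. In mesoderm, Hes and Hey genes take part in the segmentation clock and in arterial and cardiac fate. H3K4me3 and H3K27ac mark active promoters, whereas H3K27me3 and H2AK119ub are deposited by Polycomb repressive complexes. Promoters that carry both H3K4me3 and H3K27me3 are called bivalent.

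The 8 lists held 70826 peaks, from 2388 (H2AK119ub in Delta) to 16038 (H3K4me3 in WT). Numbers of reads cannot be read from these lists, and peaks with a q-value above 0.05 were not listed, so a gene without a peak is one where the mark did not reach that threshold. Spike-in scaling was not part of peak calling, so the lists do not give the amount of a mark. Deletion of the bHLH domain cannot be seen in them either. At Tal1, the gene encoding SCL, an H3K27ac peak of 1833 bp with a fold enrichment of 3.93 was listed in WT and none in Delta. For the labelled cell type, all 5 haemangioblast markers (Kdr, Tal1, Etv2, Lmo2, Gata2) had H3K4me3 at the TSS in both genotypes, and 3 of them had H3K27ac in WT against 0 in Delta. H3K4me3 did not set them apart. It was in both genotypes at all 4 early mesoderm, 2 of 2 neural, 2 of 3 endoderm and 1 of 3 pluripotent markers. Of all coding genes, 60.7% (WT) and 60.3% (Delta) had it. H3K27me3 was at 4 of the 5 haemangioblast markers in both genotypes. None of the early mesoderm, pluripotent, neural or endoderm markers had an H3K27ac peak in either list. The H3K27ac calls at haemangioblast markers thus differed between the lists together with the calls below, and their part in those results was not tested.

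The promoters of Hes1, Hes5, Hes7 and Hey1 are shown because the peaks at these genes divide them in 4 ways. They are from NCBIM37 (mm9) and run on the strand of the gene from −250 to +29, with the TSS of the most 5′ protein-coding transcript as position 0. Capitals mark the RBPJ core (TGGGAA), the N-box (CACNAG) and the class C site (CACGCG) on either strand. No letters of one motif fulfil another.
Hes1, chr16:30065176-30065455, plus strand: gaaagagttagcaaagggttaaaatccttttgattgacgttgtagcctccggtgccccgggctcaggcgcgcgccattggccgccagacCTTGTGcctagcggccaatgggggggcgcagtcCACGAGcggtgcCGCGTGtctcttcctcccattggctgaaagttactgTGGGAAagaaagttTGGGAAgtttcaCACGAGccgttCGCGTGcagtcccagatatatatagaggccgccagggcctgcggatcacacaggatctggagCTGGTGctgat
Hes5, chr4:154334782-154335061, plus strand: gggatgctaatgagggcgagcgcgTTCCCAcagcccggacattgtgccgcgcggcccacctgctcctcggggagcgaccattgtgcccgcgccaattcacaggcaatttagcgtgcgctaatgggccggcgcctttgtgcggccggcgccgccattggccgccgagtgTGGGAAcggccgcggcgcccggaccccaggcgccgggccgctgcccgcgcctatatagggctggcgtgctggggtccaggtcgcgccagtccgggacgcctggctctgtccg
Hes7, chr11:68933656-68933935, plus strand: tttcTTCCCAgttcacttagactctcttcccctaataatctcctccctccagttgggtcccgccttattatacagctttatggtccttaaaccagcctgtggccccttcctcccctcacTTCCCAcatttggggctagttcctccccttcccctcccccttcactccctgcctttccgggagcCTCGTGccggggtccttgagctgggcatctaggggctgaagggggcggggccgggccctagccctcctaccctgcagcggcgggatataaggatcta
Hey1, chr3:8667010-8667289, minus strand: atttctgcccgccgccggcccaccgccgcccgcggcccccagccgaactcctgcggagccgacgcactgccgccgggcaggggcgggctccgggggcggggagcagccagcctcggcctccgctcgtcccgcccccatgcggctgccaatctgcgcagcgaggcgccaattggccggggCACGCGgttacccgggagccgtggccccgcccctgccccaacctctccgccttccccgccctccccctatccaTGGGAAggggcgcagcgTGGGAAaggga

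Each of these 280 bp stretches fell differently in the peak lists. The Hes1 promoter lay wholly inside an H3K4me3 peak in both genotypes and outside every peak of the other marks. That of Hes5 lay wholly inside peaks of H3K4me3, H3K27me3 and H2AK119ub, in WT and in Delta. The Hes7 promoter lay wholly inside H3K27me3 in both genotypes, with H3K4me3 covering 0 bp of it in WT and 29 bp in Delta. The Hey1 promoter lay inside H3K4me3 in both genotypes and inside H3K27ac in Delta alone. Of all 9 promoters, H3K27me3 covered 5 completely and 4 not at all in either genotype. The 4 uncovered promoters were those of Hes1, Hes6, Hey1 and Hey2, and each lay wholly inside H3K4me3.

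Most members carried H3K27me3 and H3K4me3, and few carried H3K27ac. H3K27me3 was called at 8 of 9 members in WT and at 9 in Delta, where 34.8% and 32.7% of all coding genes were called. H3K4me3 was called at 7 members in WT and 8 in Delta, against 60.7% and 60.3% of coding genes. H2AK119ub was called at 6 members in WT and 4 in Delta, and 9.21% and 5.0% of coding genes had such a call. H3K27ac was called at 1 member in WT and 2 in Delta, beside 19.9% and 22.8% of coding genes. Both H3K4me3 and H3K27me3 were at the TSS of 6 members in WT and 8 in Delta, compared with 32.4% and 30.1% of coding genes. Thus the members' counts lay above the background share for H3K27me3 and H2AK119ub, and near or below it for H3K27ac. As a family chosen by function and measured in 1 library each, these counts are a description.

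**Figure D1:**
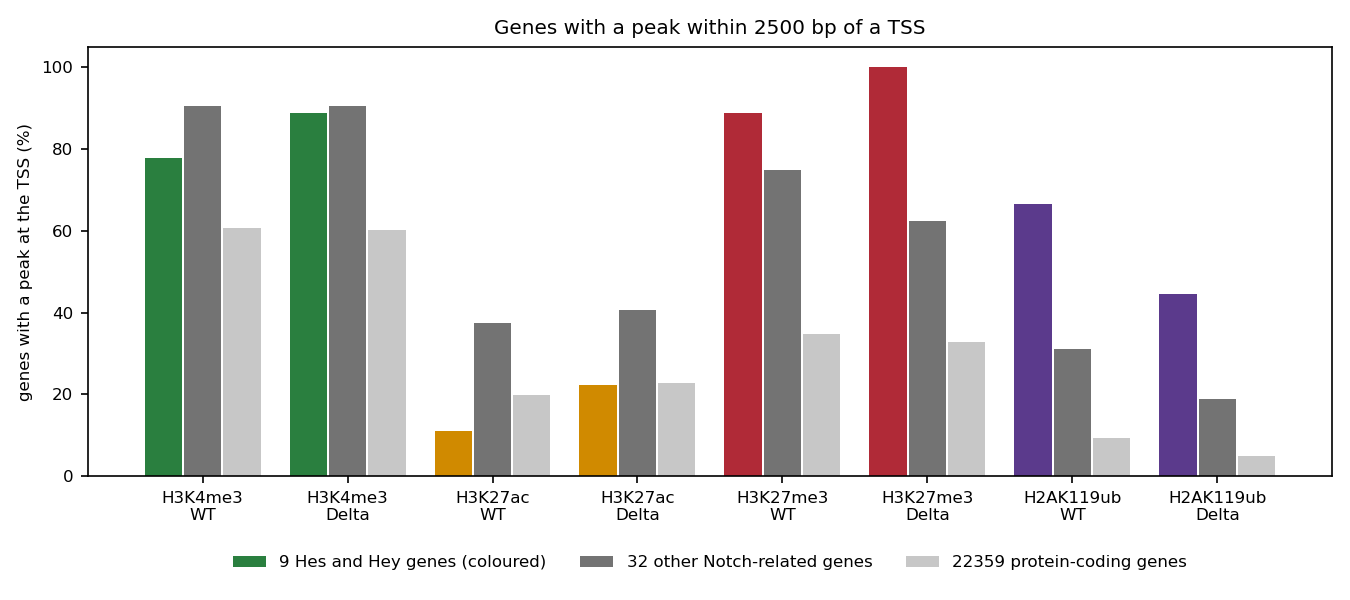
Share of genes (vertical axis, percent) with a peak within 2500 bp of a TSS in each of the 8 lists, for the 9 Hes and Hey genes (coloured), 32 other genes of Notch signalling and the bHLH-Orange family (dark grey) and 22359 protein-coding genes (light grey), with 1 library per list and no error bars. The coloured bars stand above both grey bars for H3K27me3 and H2AK119ub, and below the dark grey bars for H3K27ac.

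Calls differed between the genotypes in 7 of the 36 combinations of member and mark, with 19 called in both genotypes and 10 in neither. In WT alone there were 0 members for H3K4me3, 0 for H3K27ac and 0 for H3K27me3, with a background of 1.06%, 3.43% and 7.04% of coding genes. H2AK119ub was called in WT alone at 3 members, Hes6, Hey1 and Heyl, with a background of 5.08%. In Delta alone each mark was called at 1 member. This was Hes3 for H3K4me3 (background 0.684%), Hey1 for H3K27ac (6.37%), Hes6 for H3K27me3 (4.91%) and Hes7 for H2AK119ub (0.863%). The H2AK119ub list held fewer peaks in Delta. Of the 2060 coding genes called in WT, 55.1% had no call in Delta, and of the 6 members called in WT, 3 had none. Hes1, Hes2, Hes5 and Hey2 had the same 4 calls in WT and Delta.

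**Figure D2:**
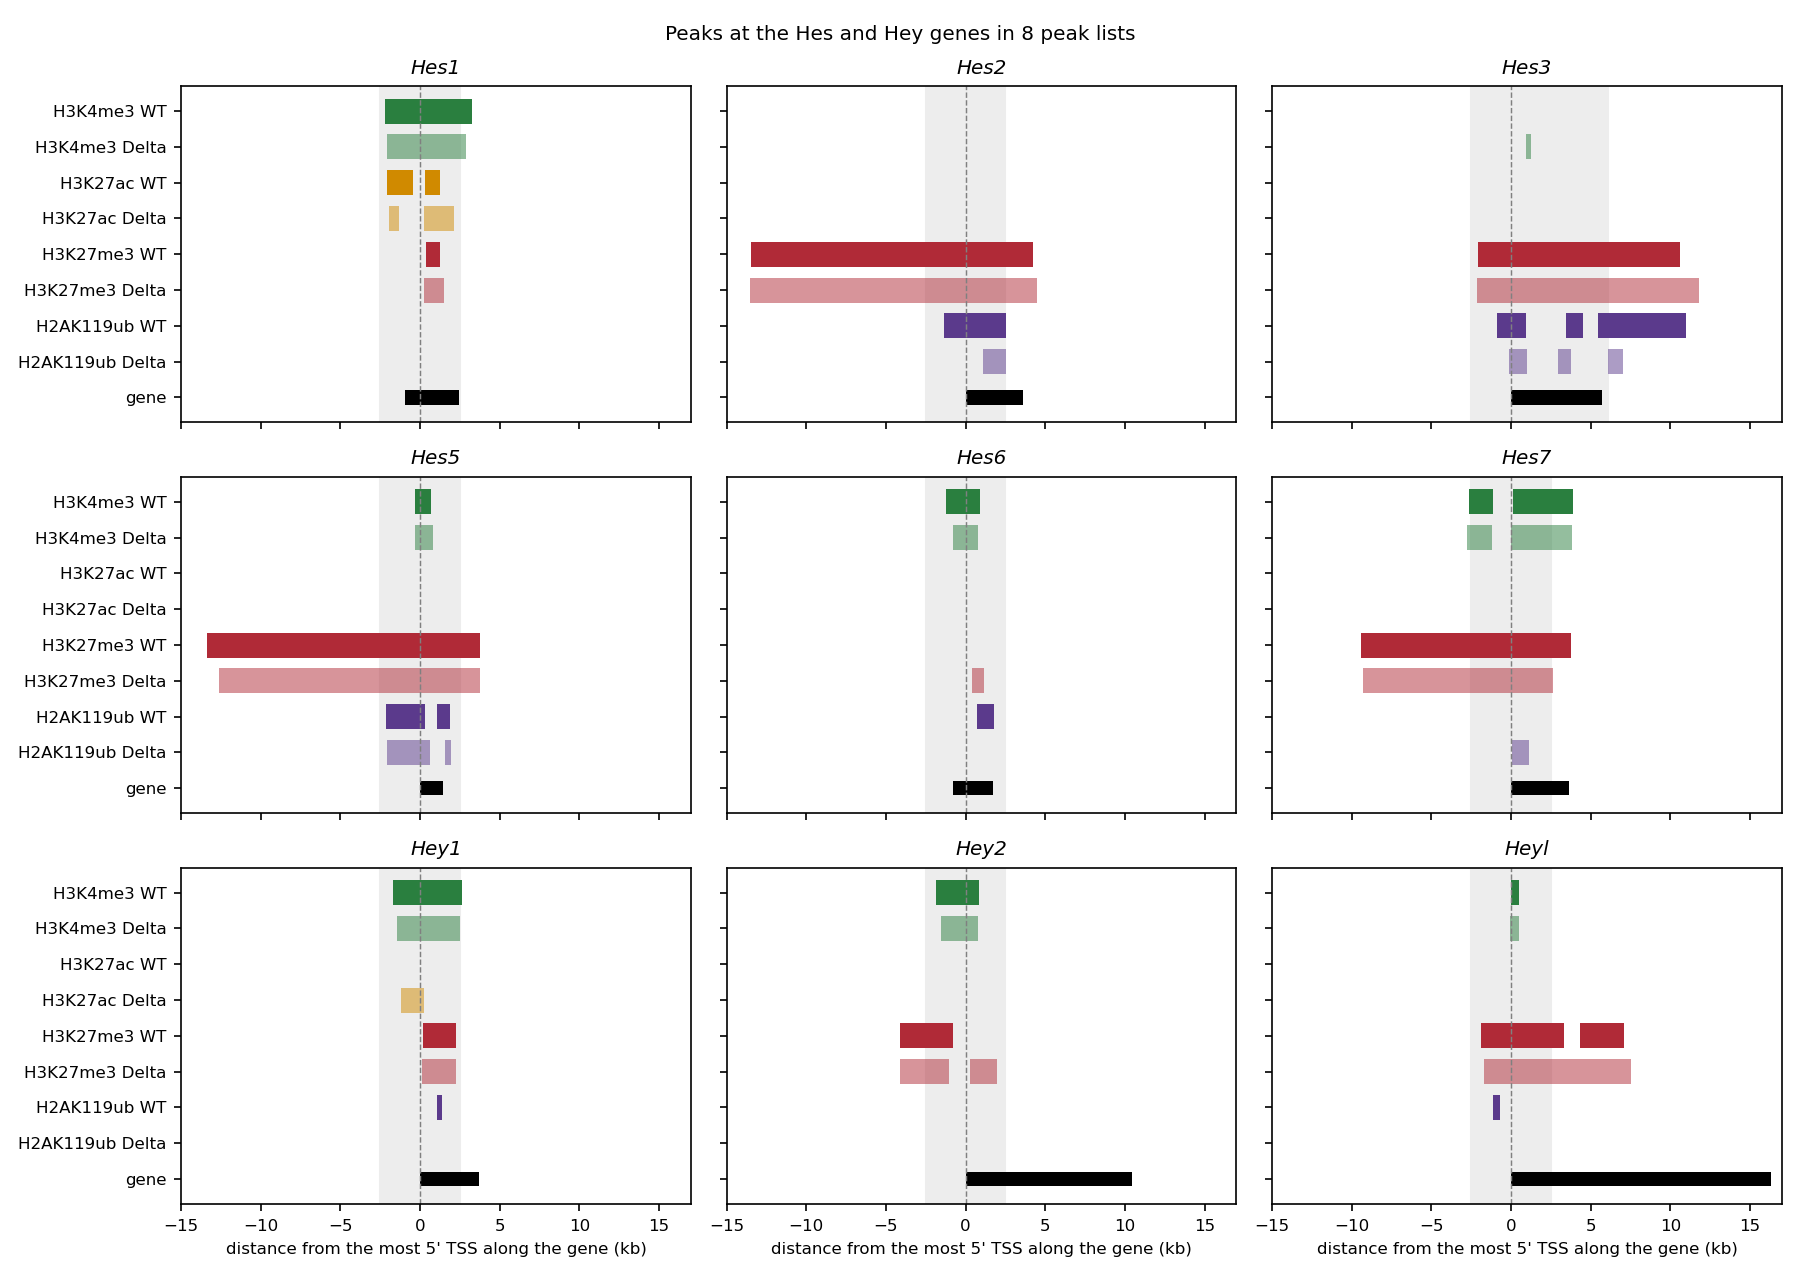
Peaks at each Hes and Hey gene, drawn to scale along the distance from the most 5′ protein-coding TSS (horizontal axis, kb, transcription to the right), with 1 row per mark and genotype, full colour for WT and pale colour for Delta, the gene in black and the TSS window in grey. H3K27me3 reaches 17984 bp at Hes2, whereas at Hes1 its longest peak is 1274 bp and H3K4me3 is the longest mark.

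Hes1 is the most widely used effector of Notch and a repressor of its own promoter. The gene lies at chr16:30064470-30067882 on the plus strand, and its annotated start is upstream of the TSS of the protein-coding transcript at 30065426. H3K4me3 ran from −2233 to +3269 bp in WT (5503 bp) and from −2046 to +2886 bp in Delta (4933 bp). These peaks were longer than 99.7% and 99.5% of their lists, with fold enrichments of 6.68 and 6.95. Of the 9 members, Hes1 was the only one with H3K27ac in both genotypes. In WT its H3K27ac peaks lay at −2059 to −432 bp (fold enrichment 4.93) and at +294 to +1226 bp (3.28). In Delta they lay at −1971 to −1355 bp (5.97) and at +276 to +2114 bp (3.99). The upstream peak thus measured 1628 bp in WT against 617 bp in Delta. The downstream peak measured 933 bp against 1839 bp, and the summed length was 2561 bp against 2456 bp. All H3K27ac bases lay within the H3K4me3 peak. Neither list had an H3K27ac peak over the TSS itself.

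Hes1 also had a weak H3K27me3 peak in the transcribed region, from +376 to +1274 bp in WT and from +247 to +1520 bp in Delta. Its fold enrichment was 2.94 in both genotypes, and only 5.04% (WT) and 2.67% (Delta) of the H3K27me3 peaks in the list had a lower one. The −log10 q was 1.65 and 1.84, so that this call, and with it the bivalent call of Hes1, is lost at a −log10 q of at least 3 or a fold enrichment of at least 3. In the TSS window 33.2% of the H3K27ac bases in WT and 50.7% in Delta were also inside H3K27me3. The nearest H2AK119ub peak was 57160 bp from the TSS in WT and 242859 bp in Delta.

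Hes5, which maintains neural progenitors, showed the opposite arrangement. It lies at chr4:154335032-154336480 on the plus strand. One H3K27me3 peak spanned the gene and its flanks, from −13404 to +3740 bp in WT (17145 bp) and from −12596 to +3729 bp in Delta (16326 bp), with fold enrichments of 7.60 and 7.94. This domain also contained the TSS of its neighbour Pank4. Inside it, H3K4me3 formed a short peak over the TSS, of 1020 bp in WT (fold enrichment 5.16) and 1117 bp in Delta (4.17). H2AK119ub had 2 peaks in each genotype. The peak over the TSS was 2447 bp in WT (fold enrichment 3.89) and 2644 bp in Delta (4.24). The other, of 772 bp in WT and 429 bp in Delta, began at +1084 and +1537 bp, so that it crossed the 3′ end of the gene in WT and lay beyond it in Delta. Of the 3 members with H2AK119ub in both genotypes, Hes5 had the most similar coverage of its TSS window, at 64.4% in WT and 61.4% in Delta.

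Hes7 drives the segmentation clock of the presomitic mesoderm. The gene, at chr11:68933906-68937557 on the plus strand, lay within H3K27me3 peaks of 13150 bp in WT (−9410 to +3739 bp, fold enrichment 5.89) and 11900 bp in Delta (−9284 to +2615 bp, 6.93). H3K4me3 was split in both lists. An upstream peak ended at −1164 bp in WT (fold enrichment 5.55) and at −1209 bp in Delta (4.28). A downstream peak ran from +107 to +3860 bp in WT (5.98) and from +1 to +3845 bp in Delta (5.64). The gap between them was 1270 bp in WT and 1209 bp in Delta. It holds the whole promoter printed above in WT, and in Delta all of it up to the TSS. Hes7, and in Delta also Hes3, had H3K4me3 called without the TSS itself being inside a peak. All H3K4me3 bases in the window were also inside H3K27me3. H2AK119ub was called in Delta alone, with 1044 bp from +63 to +1106 bp, a fold enrichment of 3.81 and a −log10 q of 1.80. The nearest WT peak of this mark was 77056 bp away.

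Hes2 and Hes3 are the 2 members without H3K4me3 in WT, and both lay in long H3K27me3 domains. Their TSSs are 132795 bp apart on chromosome 4, and that of Hes5 is a further 2669261 bp from Hes3. At Hes2 (chr4:151532976-151536578, plus strand), the longest peaks at any member were found, with 17666 bp of H3K27me3 in WT (fold enrichment 8.11) and 17984 bp in Delta (7.81). These domains also contained the TSS of Espn, and their midpoints were nearer to that gene. H2AK119ub ran from −1377 to +2513 bp in WT (3891 bp, fold enrichment 3.67) and from +1084 to +2551 bp in Delta (1468 bp, 4.36). Coverage of the window by H2AK119ub was thus 77.5% in WT and 28.3% in Delta, and the TSS was inside the WT peak only. No H3K4me3 peak came closer than 6232 bp in WT or 6551 bp in Delta.

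Hes3, expressed in the neural tube and at the midbrain-hindbrain boundary, lies at chr4:151660081-151665771 on the minus strand and was the only member with more than 1 TSS position. H3K27me3 covered 12680 bp in WT and 13932 bp in Delta, at fold enrichments of 8.82 and 9.65, which 98.1% and 98.2% of the peaks in the lists did not reach. H2AK119ub had 3 peaks in each genotype, with a summed length of 8320 bp in WT and 2955 bp in Delta. Most of this difference was in the peak at the 3′ end, much of it beyond the window, which was 5522 bp in WT and 949 bp in Delta. That WT peak shared 3297 bp with 2 Delta peaks, of which only that of 949 bp reached the window and was counted. The summed lengths therefore overstate the difference. Within the window H2AK119ub covered 3468 bp in WT and 2047 bp in Delta. In Delta alone an H3K4me3 peak of 285 bp was listed from +940 to +1224 bp, in an intron. Its fold enrichment was 3.69 and its −log10 q 2.58, and 4.47% of the peaks in the list were shorter. Its sequence is shown because this short stretch is the whole H3K4me3 signal listed inside the gene. It was 72.3% G or C and held 36 CpG dinucleotides, which are in capitals, whereas the 1001 bp around the most 5′ TSS were 52.0% G or C with 20 CpG.
Hes3 H3K4me3 peak in Delta, chr4:151664547-151664831, NCBIM37, minus strand: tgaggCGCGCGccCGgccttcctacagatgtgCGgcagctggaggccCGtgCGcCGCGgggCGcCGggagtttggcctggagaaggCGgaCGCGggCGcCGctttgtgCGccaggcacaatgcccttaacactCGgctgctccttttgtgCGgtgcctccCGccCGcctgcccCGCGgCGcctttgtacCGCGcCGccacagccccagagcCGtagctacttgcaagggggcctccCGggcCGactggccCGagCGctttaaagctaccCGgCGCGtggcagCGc

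Hes6, whose product inhibits Hes1 and promotes neuronal differentiation, had the least H3K27me3. The gene lies at chr1:93308060-93310615 on the minus strand. H3K4me3 spanned the TSS with 2121 bp in WT (fold enrichment 4.34) and 1602 bp in Delta (4.78). H3K27me3 was absent from the WT list at the TSS, and its nearest peak began 6799 bp downstream. In Delta a peak of 760 bp was called from +413 to +1172 bp, with a fold enrichment of 3.89 and a −log10 q of 5.15. H2AK119ub showed the reverse, with a peak of 1119 bp from +685 to +1803 bp in WT and in Delta none closer than 386951 bp. That WT peak had a fold enrichment of 3.18, and 4.16% of the peaks in its list had a lower one. Fold enrichments of WT H2AK119ub peaks on chromosome 1 had a median of 3.40 against 3.68 on the other autosomes apart from 8, and in Delta 3.82 against 4.05. The part of this chromosome in the Hes6 calls was not tested.

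Hey1 and Hey2 are the Notch effectors of the arterial endothelium and the heart, and both had a broad H3K4me3 peak over the TSS. At Hey1 (chr3:8663362-8667039, minus strand) this peak was 4369 bp in WT (fold enrichment 5.23) and 3954 bp in Delta (5.91). An H3K27ac peak of 1430 bp was listed in Delta alone, from −1190 to +239 bp and thus over the TSS. Its fold enrichment of 5.86 was above that of 94.7% of the Delta H3K27ac peaks, its length above that of 93.3%, and its −log10 q was 5.97. In WT the nearest H3K27ac peak was 49928 bp upstream. H3K27me3 lay downstream of the TSS in both genotypes, from +163 to +2241 bp in WT and from +103 to +2263 bp in Delta, with fold enrichments of 5.72 and 5.13. The Delta H3K27ac peak and this H3K27me3 peak met over 137 bp, 9.58% of the H3K27ac bases. A short H2AK119ub peak of 308 bp was listed in WT alone, from +1043 to +1350 bp, with a fold enrichment of 3.82 and a −log10 q of 2.13.

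At Hey2 (chr10:30552165-30562607, minus strand) H3K4me3 spanned 2693 bp in WT and 2317 bp in Delta, with fold enrichments of 6.08 and 5.65. H3K27me3 lay upstream of the TSS in both genotypes, from −4130 to −791 bp in WT (fold enrichment 4.05) and from −4107 to −1057 bp in Delta (3.55). In Delta a second peak of 1700 bp, from +292 to +1991 bp, was listed in the first part of the gene, all of it intronic. Its fold enrichment was 3.11 and its −log10 q 2.01. With it, H3K27me3 covered 34.2% of the window in WT and 62.9% in Delta. This difference rests on that peak: with peaks of a −log10 q of at least 3 alone, H3K27me3 covered 1710 bp of the window in WT and 1444 bp in Delta, so the direction turned. No H2AK119ub peak was closer to the Hey2 TSS than 1693831 bp in either list, and no H3K27ac peak closer than 224029 bp.

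Heyl, found in somites and vascular smooth muscle, is the longest member at 16320 bp (chr4:122910799-122927118, plus strand). It had a short H3K4me3 peak at the TSS, of 506 bp in WT (−12 to +493 bp) and 525 bp in Delta (−47 to +477 bp). H3K27me3 was listed in WT as a peak of 5188 bp over the TSS (fold enrichment 5.56) and a separate one of 2722 bp in the gene body, from +4353 to +7074 bp. In Delta a single peak of 9227 bp ran from −1691 to +7535 bp with a fold enrichment of 6.86 and covered both. Within the TSS window coverage was 87.7% in WT and 83.8% in Delta, so the additional length of the Delta peak lay outside it. H2AK119ub was listed in WT alone, with 419 bp from −1143 to −725 bp. Its fold enrichment of 4.15 exceeded that of 95.4% of the list, and its −log10 q was 2.40.

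Peaks were counted up to 2500 bp from a TSS. The counted peaks farthest out were those of H2AK119ub at the 3′ end of Hes3, which lay 2460 bp from the nearer of its TSSs in Delta and 1831 bp in WT. The nearest peak left out in a list without a call was the WT H3K4me3 peak 4833 bp upstream of Hes3, of 1702 bp and a fold enrichment of 10.81. It ran from −6534 to −4833 bp and so held the TSS of the neighbouring gene Icmt, 5565 bp from Hes3. In all, 57 peaks were assigned, 56 of them by the TSS window and 1, at Heyl, by the gene body alone.

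**Figure D3:**
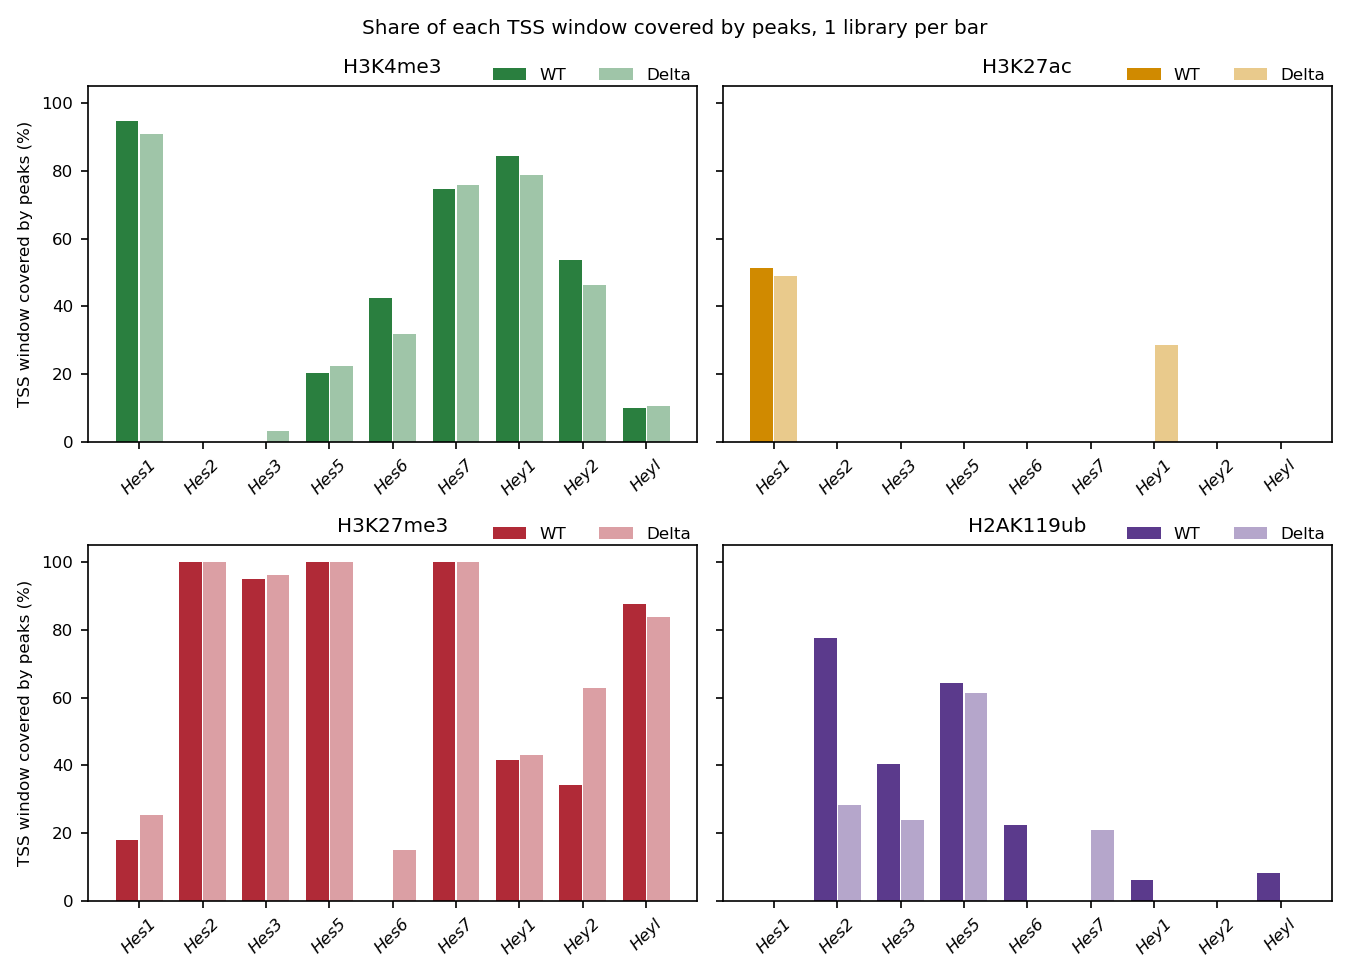
Share of the TSS window (vertical axis, percent) covered by peaks of each mark at the 9 genes, with WT in full colour and Delta in pale colour, 1 library per bar and no error bars. H3K27me3 fills the windows of Hes2, Hes5 and Hes7 (100%) in both genotypes, while H3K4me3 covers 94.7% (WT) and 90.9% (Delta) at Hes1.

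The covered length of the TSS windows, 48611 bp over the 9 members, summarised these differences. H3K27me3 covered 66.3% of it in WT and 71.6% in Delta, H3K4me3 39.1% and 37.3%, H2AK119ub 25.5% and 15.6%, and H3K27ac 5.27% and 7.99%. These shares come from lists without spike-in scaling and do not measure the amount of a mark. After such scaling, the study reported both Polycomb marks to be reduced at TSSs genome-wide in Delta cells. The lengths of H2AK119ub and H3K27ac depended most on which peaks were used. With peaks up to 3000 bp apart joined, H2AK119ub covered 17386 bp in place of 12411 bp (WT) and 12725 bp in place of 7581 bp (Delta), and H3K27ac covered 5902 bp in place of 3886 bp in Delta. With a −log10 q of at least 3, H2AK119ub covered 0 bp in both lists, and H3K27ac 1628 bp (WT) and 2047 bp (Delta). H3K27me3 then covered 31351 bp in place of 32250 bp (WT) and 31827 bp in place of 34801 bp (Delta). Its WT and Delta lengths thus lay closer together. The median member had 87.7% (WT) and 83.8% (Delta) of its window in H3K27me3, whereas the median coding gene had none. For H3K4me3 the median was 42.4% in WT and 32.0% in Delta for the members and 12.3% and 11.2% for coding genes. All 3 members with H2AK119ub in both genotypes (Hes2, Hes3, Hes5) had fewer bases of it in Delta, with ratios of Delta to WT of 0.365, 0.590 and 0.955. The whole list of this mark held 4922 peaks in WT and 2388 in Delta. Among the 7 members with H3K4me3 in both, 3 had more bases in Delta and 4 fewer, with ratios from 0.755 (Hes6) to 1.10 (Hes5). Of the 8 with H3K27me3 in both, 4 (Hes1, Hes3, Hey1, Hey2) had more, 1 fewer and 3 an equal number. With a −log10 q of at least 3, Hes1 had no H3K27me3 in either list and Hey2 had fewer bases in Delta. Hes3 and Hey1 kept their values. For none of these directions is the share of coding genes given, so they are not shown to be particular to the members. At Hes5, Hes7 and Heyl all H3K4me3 bases lay inside H3K27me3, and at Hes1, Hey1 and Hey2 between 19.0% and 54.9% did. H2AK119ub bases lay wholly inside H3K27me3 at every member and genotype with H2AK119ub, other than Hes6 in WT, where none did.

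Ranked within their own lists, the members' peaks stood out by mark. The H3K27me3 peaks over the TSS of Hes2, Hes3, Hes5 and Hes7 were longer than 97.1% to 98.6% of their lists and had higher fold enrichments than 84.2% to 98.2%. H3K4me3 peaks of Hes1, Hey1 and the downstream peak of Hes7 were likewise long, above 97.7% to 99.7% of their lists, but ranked between 35.0% and 67.1% by fold enrichment. H2AK119ub peaks had a −log10 q between 1.69 and 2.71 at all members, in lists whose medians were 1.87 (WT) and 1.92 (Delta).

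**Figure D4:**
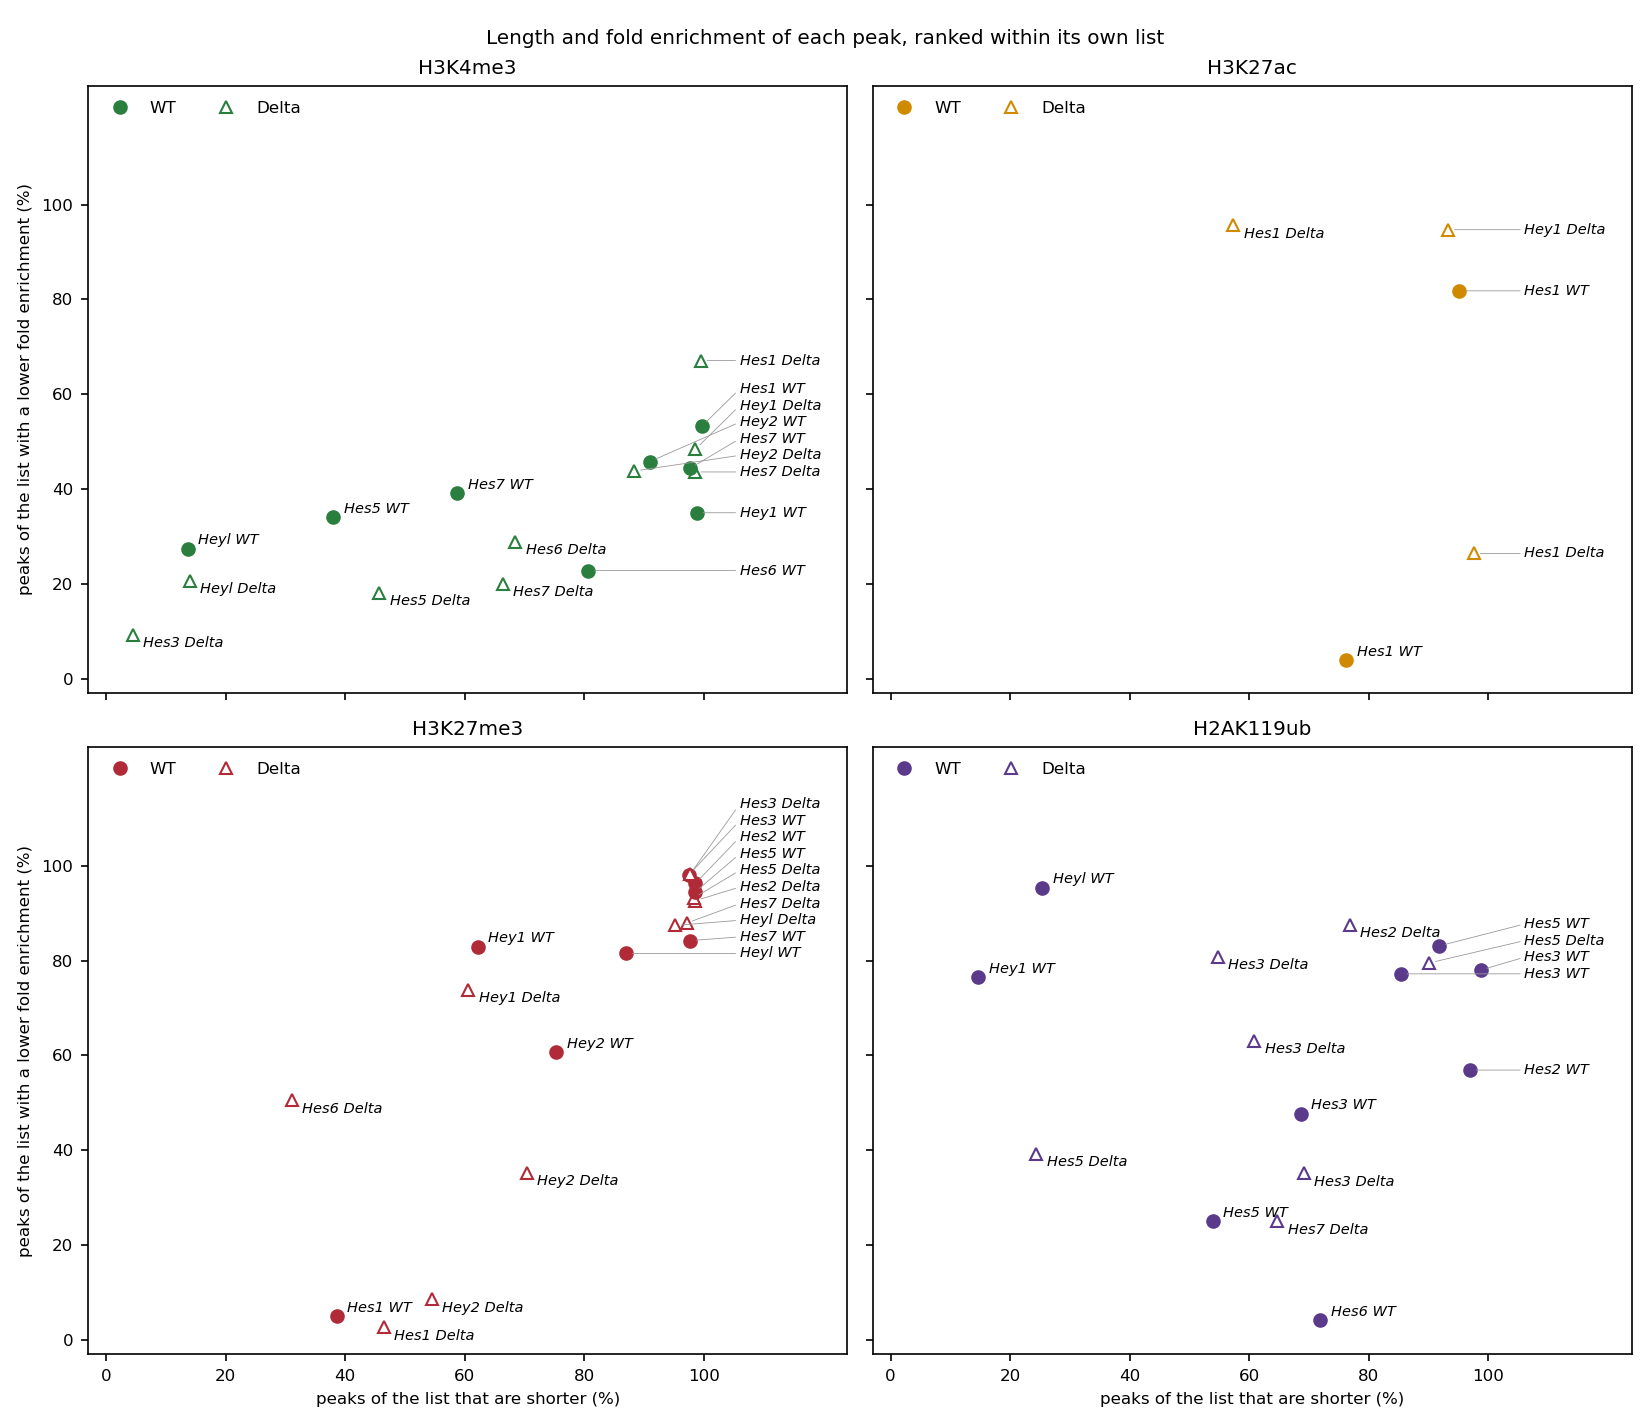
Rank of each member's TSS-window peaks within its own list, as the percent of peaks that are shorter (horizontal axis) and the percent with a lower fold enrichment (vertical axis), for WT (filled circles) and Delta (open triangles), with 1 point per peak. H3K27me3 peaks of Hes2, Hes3, Hes5 and Hes7 crowd into the upper right corner, while those of Hes1 lie at 5.04% and 2.67% by fold enrichment.

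Members with and without a CpG island at the TSS carried H3K27me3. With a CpG island taken as 1001 bp of at least 50% GC and an observed to expected CpG ratio of at least 0.6, 4 members had one (Hes5, Hes6, Hey1, Hey2), and 44.6% of coding genes did. The members without were Hes1, Hes2, Hes3, Hes7 and Heyl. Hes1 had a ratio of 0.669 but a GC content of 45.8%. The criteria were read only in the 1001 bp around the most 5′ TSS, so islands elsewhere in the wider TSS windows were not counted. The CpG-rich stretch of Hes3 shown above, from +940 to +1224 bp, lay outside the 1001 bp. All 5 members without an island had H3K27me3 in both genotypes, where 18.3% (WT) and 17.7% (Delta) of coding genes without an island did. The call of Hes1 is lost at a −log10 q or a fold enrichment of at least 3. That of Hes2 is lost without peaks nearer to another gene. Of the 4 with an island, 3 in WT and 4 in Delta had H3K27me3, against 55.5% and 51.4% of coding genes with an island. None of the 4 had an H3K27ac peak in WT, while 39.5% of coding genes with an island did. In Delta 1 of the 4, Hey1, had one, beside 44.8% of coding genes with an island.

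The RBPJ core stood in the promoter (−250 to +49) of 6 members, Hes1, Hes3, Hes5, Hes7, Hey1 and Hey2, and in 24.2% of coding promoters. Of these 6, all but Hes3 held 2 copies. Positions are those of the first base along the gene. The copies stood at −80 and −66 in Hes1, −226 and −82 in Hes5, and −246 and −131 in Hes7. In Hey1 they stood at +2 and +19 and in Hey2 at −189 and +15. The copies of Hes5 at −226, of Hes7 at both positions and of Hey2 at −189 lay on the opposite strand, as TTCCCA. The class C site was found in 4 members (Hes1, Hes2, Hes7, Hey1) and 11.8% of promoters, the N-box in 3 (Hes1, Hes6, Hes7) and 41.7%, and the E-box CANNTG in 8, all but Hes1, and 69.4%. A GATA site was in 2 (Hes1, Heyl) and 27.4%. Hes1 was the only member with 4 N-boxes and 2 class C sites. These are letter matches in the reference and no measure of binding.

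Other genes of the pathway and family had H3K27ac in a larger share than the members and H2AK119ub in a smaller one. Of 32 such genes, 12 had H3K27ac in WT and 13 in Delta (37.5% and 40.6%), with Notch1 called in Delta alone. H3K4me3 was at 29 in both genotypes. H3K27me3 was at 24 in WT and 20 in Delta. H2AK119ub was at 10 in WT and 6 in Delta (31.2% and 18.8%). All 5 Notch ligands had H3K4me3 and H3K27me3 in both genotypes, none had H3K27ac, and 3 had H2AK119ub in both. Among the 4 receptors, Notch2 and Notch3 had H3K27me3 in WT alone and Notch1 had H2AK119ub in WT alone. Of the 3 Fringe genes, which glycosylate Notch receptors, Lfng and Rfng had H2AK119ub in WT alone. In the nuclear complex of RBPJ and its coactivators, 3 of 4 genes had H3K27ac in both genotypes, and H3K27me3 was at Maml1 in WT alone and at Maml3 in Delta alone. Of 7 genes for Notch cleavage, 4 had H3K27ac in both, and Psenen had H3K27me3 in WT alone. Of the 5 Groucho/TLE corepressors 2 had H3K27ac in both, and Tle4 had H3K27me3 in WT alone. Nrarp, another Notch target, had H3K4me3, H3K27ac and H3K27me3 in both genotypes and H2AK119ub in WT alone. The 3 other bHLH-Orange genes (Helt, Bhlhe40, Bhlhe41) had H3K4me3 and H3K27me3 but no H3K27ac in both genotypes, and 2 of them had H2AK119ub in both.

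**Figure D5:**
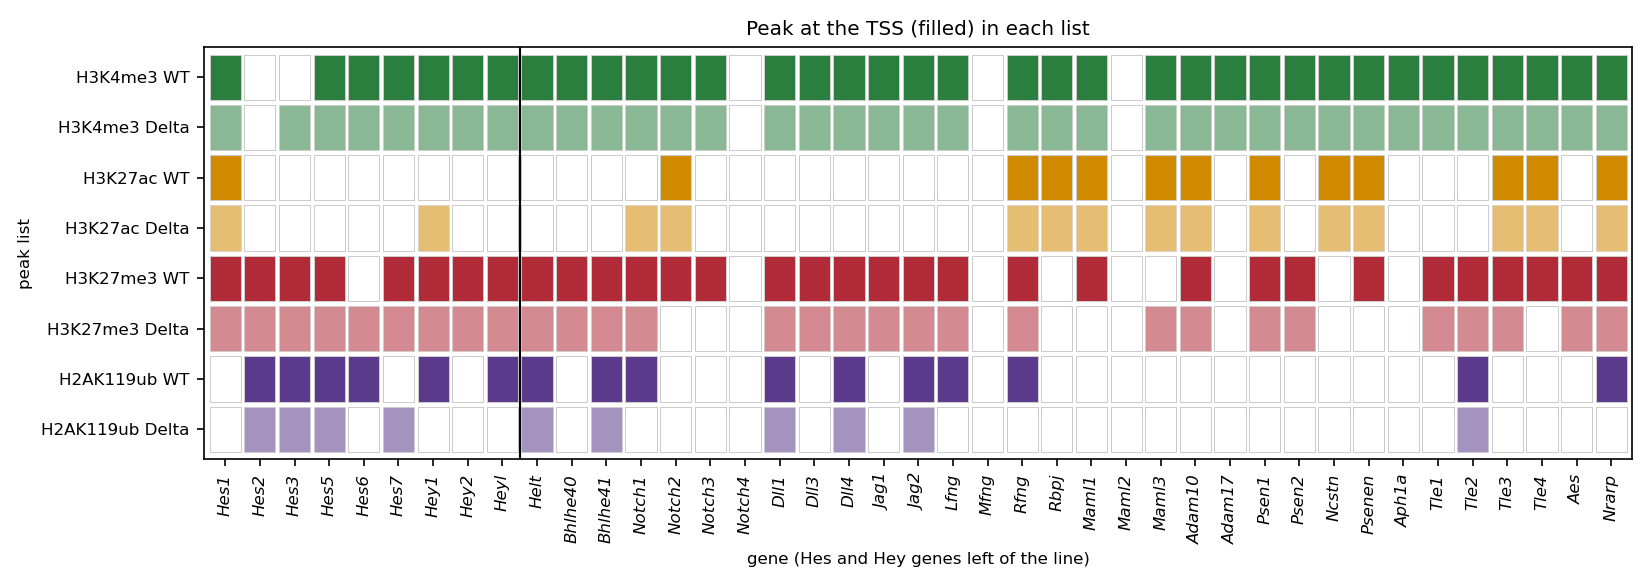
Peak within 2500 bp of a TSS (filled squares) in each of the 8 lists (rows) for the 9 Hes and Hey genes, left of the line, and 32 other genes of the pathway and family (columns), with full colour for WT and pale colour for Delta. H3K27ac fills 1 of the 9 squares of the Hes and Hey genes in WT and 2 in Delta, and 12 and 13 of the 32 others.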

How the data were processed

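ChIP-Rx of H2AK119ub, H3K27me3, H3K27ac and H3K4me3 was carried out by the authors on sorted mCherry+ cells of day 4 embryoid bodies, with mouse and S2 cells mixed 2 to 1. Reads were trimmed with Trim Galore and mapped with Bowtie to mm9 and dm3, and duplicates were removed. Broad peaks were called with MACS2 2.0.10 (broad cutoff 0.05) in each library against the input of its genotype, without pooling. The deposited columns are a score, a fold enrichment (a ratio to the local background) and the −log10 of a p-value and a q-value, all made by the authors. The score was not used. The peak lists hold no read counts, and the read totals stated by the study were not used here. Values were ranked only within their list and no interval was computed.

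Coordinates are 1-based on NCBIM37 (mm9), with GENCODE M1 genes. A gene was called when a peak overlapped by at least 1 bp the 2500 bp on either side of any protein-coding TSS. Covered length was summed over that window. CpG content and motifs were read from the genome. Overlaps were computed in Python 3.11.15 and checked with bedtools 2.31.1, which differed in 0 genes. In a test on simulated data with 200 genes given a peak, 200 were called. Groups came from sample titles. Every member was named, and of the pathway lists the genes called in one genotype alone. The members of the haemangioblast and bHLH-Orange lists were named to say what these lists hold, outside that rule. Sox1 did not match the annotation, so 2 of 3 neural markers were used. The members and lists were chosen with earlier results of these data known. Alternatives were a TSS distance of 1000 or 5000 bp, a −log10 q or a fold enrichment of at least 3, an overlap of 500 bp, use of the gene body, use of the most 5′ TSS, removal of peaks nearer to another gene, and joining of peaks up to 3000 bp apart.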

Additional observations from a re-analysis of the deposited data

How the results depend on the processing

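No paired analysis was possible because each mark and genotype had 1 library. Of the 16 counts of members, 16 stayed within 1.5 times their value at a TSS distance of 1000 bp, with the gene body added, at a fold enrichment of at least 3, with the most 5′ TSS alone and without peaks nearer to another gene. At a −log10 q of at least 3, H2AK119ub was at 0 members in WT, 0 in Delta, 0 in WT alone and 0 in Delta alone, in lists of which 2.01% (WT) and 2.05% (Delta) of peaks pass, and H3K4me3 in Delta alone was at 0. H3K4me3 in Delta alone was also at 0 with 5000 bp, where Hes3 gained a WT call from the peak over the TSS of Icmt, and with an overlap of 500 bp. That overlap left H2AK119ub in WT alone at 1 member, Hes6. At 1000 bp the 3 members with H2AK119ub in WT alone were Hes2, Hes6 and Heyl. Without peaks nearer to another gene Hes2 lost H3K27me3. The H3K27ac call of Hey1 and the H3K27me3 call of Hes6, both in Delta alone, were kept under each of these alternatives. The part of read depth in a missing peak was not tested.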
